A study of Mus musculus with 21 samples.

Results

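Cells that become senescent often carry more lysosomes, and the most widely used stain for senescence detects the activity of a lysosomal enzyme, beta-galactosidase, encoded by Glb1. The data below describe 50 mouse genes of the lysosome, of 22050 entries in the deposited table, in epidermal keratinocytes that had carried an induced p16 transgene for 6 months. The 50 genes were chosen by name for what they encode, with earlier results of these data known. They were 11 glycosidases, 11 cathepsins, 6 other hydrolases and helper proteins, and 5 membrane proteins. The rest were 2 transcription factors and 15 subunits and partners of the proton pump. All 50 were found in the table, and 48 averaged 1 normalized unit or more over the 8 samples and entered the test.

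The p16 group came from K5-rtTA/tet-GFP/tet-p16 animals. The controls were K5-rtTA/tet-GFP animals, which share the K5-rtTA driver, the GFP reporter and the doxycycline but lack the p16 transgene. In these mice the Keratin 5 promoter, active in basal epithelial cells of skin, drives the doxycycline-dependent activator rtTA, which switches on GFP and, in the p16 group, human p16. All mice were of mixed FVB, C57Bl and 129sv background and received doxycycline for 6 months, starting at 3 weeks of age. GFP+ cells of dorsal skin were sorted after cells bearing CD140a, CD45 or CD31 (markers of fibroblasts, immune and endothelial cells) had been gated out. Each of the 4 control and 4 p16 samples held about 80000 cells pooled from 3 mice, so p-values measure the spread between pools and not between single mice. The study drew these samples from 3 independent experiments, which the labels do not tie to samples. The study describes 3′ libraries made by CEL-Seq. The labels of replicate 3 of both groups name Illumina's RNA sequencing protocol instead.

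The lysosome digests material delivered by endocytosis and autophagy. A proton pump, the V-ATPase, keeps its lumen acidic, and soluble enzymes that work at acid pH break down proteins (the cathepsins), sugar chains (the glycosidases), lipids and nucleic acids. The transcription factors TFEB and TFE3 can raise many lysosomal genes together through a promoter element, the CLEAR element, whose core is TCACGTGA and contains the shorter E-box CACGTG. In skin, cathepsins D and L take part in keratinocyte differentiation and in the upkeep of hair follicles.

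The E-box stretches of Glb1 and of the 3 members that fell in p16 cells are shown because the TFEB family is known to bind such letters and the results turn on these genes. They are from RefSeq promoters (build GRCm38.p6), which run from 250 bases before to 50 bases after a start site, are written 5′ to 3′ on the strand of the gene with up to 12 bases on each side, and carry CACGTG in capitals.
Glb1 (plus strand of chr9:114401018-114401047): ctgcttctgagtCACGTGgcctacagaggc
Ctsd, first E-box (minus strand of chr7:142388055-142388077): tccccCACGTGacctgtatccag
Ctsd, second E-box (minus strand of chr7:142387908-142387937): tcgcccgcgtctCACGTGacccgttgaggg
Ctsl (minus strand of chr13:64370739-64370768): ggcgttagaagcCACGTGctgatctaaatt
Atp6v1a (minus strand of chr16:44139373-44139402): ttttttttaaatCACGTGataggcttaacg
The E-box of Glb1 began 48 bases before the start site, those of Ctsd 245 and 98 bases before it, that of Ctsl 236 and that of Atp6v1a 131 bases before it. The second site of Ctsd and the site of Atp6v1a were full TCACGTGA cores. By the GENCODE M21 gene models of the same build, the Glb1 stretch and the first Ctsd stretch lie upstream of the gene. The second Ctsd stretch lies in a 5′ untranslated exon of 1 of 3 transcript models. The Ctsl stretch is spanned by 2 of 7 models and lies in an untranslated exon of 1 of them, and the Atp6v1a stretch lies in the first intron of 2 of 6 models and in no exon.

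Of the 50 members, 44 had a promoter entry, and 14 of these (31.8%) held CACGTG, which reads the same on both strands. The same letters were found in 11.6% of the 9926 tested genes with an entry and in 8.09% of all 27025 genes of the promoter table. TCACGTGA, which always includes CACGTG and also reads the same on both strands, was found in 7 of the 44 members (15.9%), in 2.16% of the tested genes and in 1.12% of all genes. E-boxes were held by 4 of 11 glycosidases (36.4%), 4 of 9 cathepsins (44.4%), 2 of 5 membrane proteins (40.0%) and 4 of 11 pump genes (36.4%), and by none of the 6 other hydrolases and the 2 transcription factors. A match is a string of letters in a window, not a measured binding site.

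Total reads on genes were 1760953 to 3414362 per sample in controls and 2884544 to 3202975 in p16 samples. The lowest were control replicates 4 (1760953) and 2 (2068248). The limit of detection, for counting error only, was taken as 3 reads, which stood for 2.23 to 4.58 normalized units. The human p16 transgene, hsCDKN2A, was at 0.7, 1.3, 2.5 and 1.5 normalized units in control replicates 1 to 4 and at 1.6, 10.1, 16 and 7.4 in the p16 samples in the same order. The first of these, the library labelled p16 replicate 1, lay within the control range for the transgene. Its value of 1.6 was below the 3-read limit of that library, 2.40. Its sebaceous gland markers summed to 731.6, beside 772.8 to 1093.1 in the other p16 samples and 1754.3 to 2397.9 in controls. Its hair follicle markers summed to 6306.1, beside 5513.7 to 7594.4 in the other p16 samples and 7281.6 to 9852.8 in controls. Why its transgene value was low was not tested, and calls are given with and without it. EGFP was at 4152.0 to 5912.6 in controls and 3161.8 to 3978.8 in p16 samples. Keratinocyte genes were high in every sample (Krt5 at 9045.9 to 17968.5). Reads of Krt5 were close to equal in all 8 samples, at 11761 to 12279, so its normalized value mainly followed depth. Markers of the cells that were gated out were mixed. Lum, Cdh5, Kdr, Emcn, Lyz2 and Cd8a were listed at 0 in every sample. Cd74 was at 72.7 to 113.5, H2-Aa at 13.8 to 47.6, Cd3d at 1.8 to 15 and Pecam1 at 1.3 to 6.4. Dcn was at 2.6 to 10.7 in controls and 36.2 to 203.0 in p16 samples. Other fibroblast markers over all samples were Col1a1 at 0.8 to 11.5, Col1a2 at 1.6 to 17.8 and Col3a1 at 0 to 4.6. Pdgfra was at 0 to 3.5, Fbn1 at 0 to 1.5 and Thy1 at 582.1 to 2908.2.

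Lysosomal transcripts did not rise as a group in p16 keratinocytes. Of the 48 tested members, 26 were on average higher and 22 lower in p16 cells on the log2 scale, and the median of their log2 fold changes was 0.01, beside -0.0027 over all 12782 genes tested. None of the 48 was called higher at an adjusted p under 0.05 (limma on log2(normalized value + 1), Benjamini-Hochberg over all genes tested), where 1.24% of all genes were. Of the 48, 3 (6.25%) were called lower, where 2.61% of all genes were, and these were Ctsl, Ctsd and Atp6v1a. At an unadjusted p under 0.05, 4 of 48 members were higher, where 7.02% of all genes were, and 9 of 48 lower, where 8.93% were. The 4 p16 values lay wholly below the 4 control values for 6 of 48 members, where they did for 5.63% of all genes. They lay wholly above them for 1 of 48, where they did for 4.19% of all genes. Without the library labelled p16 replicate 1, 0 of 48 members were called higher, where 0.54% of all genes were. In that setting 2 of 48, Ctsl and Ctsd, were called lower, where 1.49% of all genes were.

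How narrowly the members were measured differed. The log2 fold changes ran from -1.02 (Ctsl) to 0.88 (Manba), 39 of 48 were within 0.5 of 0, and their standard errors ran from 0.09 to 0.67. The 95% interval lay within 0.5 of 0 for 23 members and within 1 of 0 for 40, and for the remaining 8 it reached beyond a 2-fold change. Summed over all members, normalized values were 18936.9, 18893.6, 21054.0 and 19605.8 in controls and 18039.8, 17732.7, 17789.4 and 19482.9 in p16 samples. The highest p16 sum, in replicate 4, lay within the control range, and the sums of the other 3 p16 samples lay below all controls. This was 0.712 to 0.822% of all normalized values in controls and 0.696 to 0.748% in p16 samples.

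**Figure D1:**
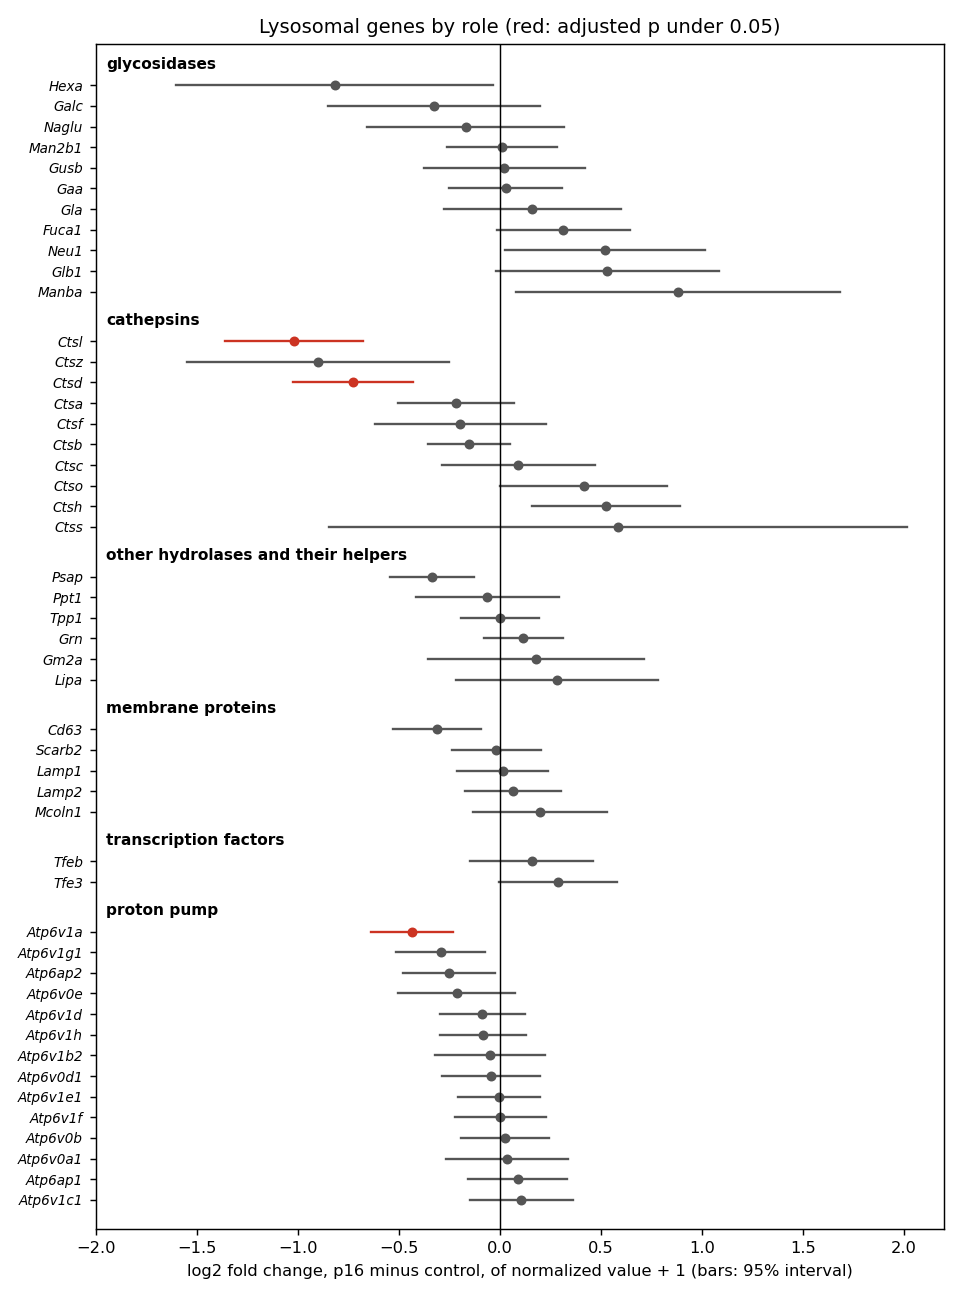
Log2 fold change, p16 minus control, of the 48 tested lysosomal genes (points) with 95% intervals from limma (bars), grouped by role; the x axis is on the log2(normalized value + 1) scale. The 3 genes in red, Ctsl, Ctsd and Atp6v1a, have an adjusted p under 0.05 and lie to the left of 0, while the glycosidases and most pump genes scatter around 0.

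Glb1 (ENSMUSG00000045594, chr9:114401076-114474898, plus strand, GRCm38), the beta-galactosidase behind the senescence stain, was measured from few reads, 8 to 38 per sample. Its normalized values were 18.5, 16.7, 29.2 and 12.2 in controls and 26.4, 27.3, 23.1 and 31.2 in p16 samples. Control replicate 3 lay among the p16 samples, and the other 3 controls lay below all 4 of them. The means were 19.2 ± 7.21 and 27.0 ± 3.33 (SD, n = 4 each), 1.41-fold higher in p16 cells. The log2 fold change of 0.53 (SE 0.26, 95% interval -0.02 to 1.08) did not pass the test (adjusted p = 0.334, limma), and the exact two-sided permutation test on the 8 values gave p = 0.114 (n = 4 and 4, smallest possible p 0.0286). Its adjusted p was between 0.145 and 0.67 in all 16 other settings tried, and 0.493 without the library labelled p16 replicate 1.

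The other glycosidases, which strip sugars from glycoproteins, glycolipids and glycogen, gave 0 calls in either direction, and with Glb1 the 11 log2 fold changes had a median of 0.03. Their summed values were 501.8 to 584.5 in controls and 537.1 to 659.3 in p16 samples. Man2b1, an alpha-mannosidase, was at 152 ± 17.0 in controls and 153.5 ± 20.8 in p16 cells, and Fuca1, an alpha-fucosidase, was at 101 ± 16.6 and 126 ± 18.2 (adjusted p = 0.983 and 0.338, limma). At an unadjusted p under 0.05, Manba (beta-mannosidase, log2 fold change 0.88) and Neu1 (a sialidase, 0.52) were higher and Hexa (a beta-hexosaminidase subunit, -0.82) was lower, with adjusted p of 0.257, 0.281 and 0.286. Manba and Hexa were counted from 4 to 24 and 5 to 22 reads per sample. The remaining members, Gaa, Gla, Galc, Gusb and Naglu, had log2 fold changes between -0.33 and 0.16 and overlapping groups.

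Cathepsin L, a cysteine protease encoded by Ctsl (ENSMUSG00000021477, chr13:64359337-64370890, minus strand), was the member with the greatest fall. Ctsl was at 333.1, 315.7, 351.6 and 275.0 in controls and 145.5, 139.8, 127.7 and 228.6 in p16 samples. All p16 samples lay below all controls, and p16 replicate 4 was the highest of them. The mean fell from 319 ± 32.7 to 160 ± 46.1, a ratio of 0.503, with a log2 fold change of -1.02 (SE 0.16, adjusted p = 0.00223, limma). It stayed below 0.05 in all 16 other settings (adjusted p from 3.65e-06 to 0.0375), and was -0.99 (adjusted p = 0.012) when the library labelled p16 replicate 1 was left out.

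Cathepsin D, the main aspartic protease of the lysosome, encoded by Ctsd (ENSMUSG00000007891, chr7:142375911-142388038, minus strand), fell as well. Ctsd was at 733.7, 749.5, 1065.7 and 847.9 in controls and 434.2, 531.7, 452.2 and 633.9 in p16 samples. The groups did not overlap, and control replicate 3 stood highest. The ratio of the means was 0.604 and the log2 fold change -0.73 (SE 0.14, adjusted p = 0.00854, limma). The call held in 15 of 16 other settings (adjusted p from 2.0e-04 to 0.083), at -0.65 (adjusted p = 0.0406) when the library labelled p16 replicate 1 was left out. It was lost when replicate 3 of both groups was left out, at -0.56 (adjusted p = 0.083).

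Ctso, a cysteine protease, was the sole member whose p16 values all lay above the controls, but the difference did not pass the test. It was at 34.1, 32.1, 21.7 and 29.0 in controls and 40.0, 35.9, 43.4 and 36.2 in p16 samples (log2 fold change 0.41, SE 0.19, adjusted p = 0.312, limma, and 0.499 leaving out the library labelled p16 replicate 1). The gap between the highest control and the lowest p16 sample was small beside the spread within each group.

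Of the other cathepsins none was called, though 6 of the 10 tested were on average lower in p16 cells, Ctsl and Ctsd included. Ctsb, a cysteine protease, was at 2906 ± 259 in controls and 2606 ± 131 in p16 cells, and Ctsa, which protects beta-galactosidase and sialidase in a complex, at 351 ± 76.8 and 297.5 ± 20.4 (log2 fold change -0.15 and -0.22, adjusted p = 0.472 and 0.479, limma). Ctsh was higher at an unadjusted p under 0.05 (0.52, adjusted p = 0.122). Ctsz, a carboxypeptidase, went from a mean of 27.3 to 13.8, a ratio of 0.506 that is close to that of Ctsl, but from 11 to 44 reads per sample (-0.90, SE 0.30, adjusted p = 0.135, limma). Its adjusted p ran from 0.0291 to 0.475 over the 16 other settings, and it was called without control replicate 2 (0.0291). Ctsc and Ctsf had log2 fold changes of 0.09 and -0.20. Ctss, typical of antigen-presenting cells, was counted from 0 to 4 reads per sample, and Ctsk, known from osteoclasts, from 0 to 2 reads, below the minimum for a test. Over the 10 tested cathepsins the median log2 fold change was -0.18. Their summed values were 4416.1, 4717.7, 5483.8 and 4985.1 in controls and 3982.6, 4053.8, 4022.0 and 4453.8 in p16 samples, where p16 replicate 4 alone reached into the control range.

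**Figure D2:**
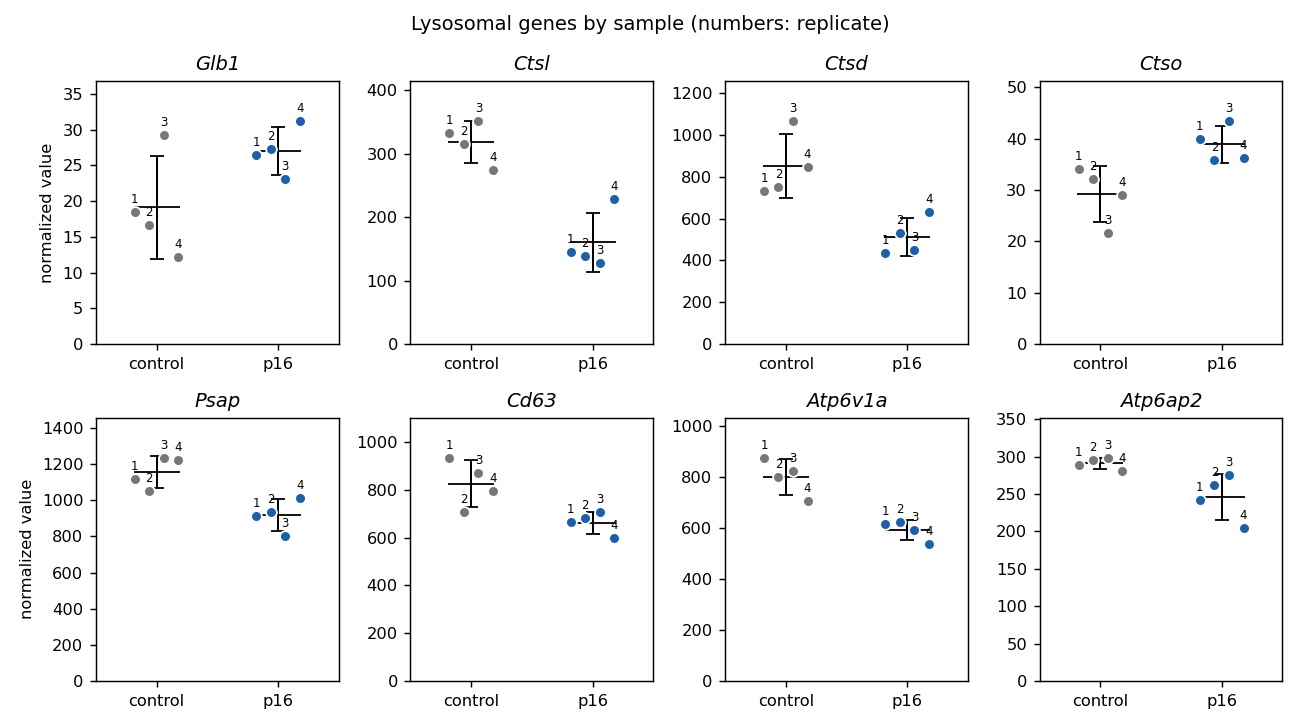
Normalized values (y axis, from 0) of Glb1 and of the 7 members whose groups do not overlap, for the 4 control (grey) and 4 p16 (blue) samples, with the replicate number beside each point and the mean ± SD in black. The p16 points lie wholly below the controls for Ctsl, Ctsd, Psap, Cd63, Atp6v1a and Atp6ap2 and wholly above for Ctso, while Glb1 overlaps through control replicate 3.

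Among the hydrolases that act on lipids and other substrates, and their helpers, 0 of 6 were called. Psap, the precursor of the saposins that present glycolipids to glycosidases, was at 1118.7, 1052.3, 1234.4 and 1222.2 in controls and 914.7, 936.1, 803.3 and 1014.6 in p16 samples. Its p16 values all lay below the controls, yet the log2 fold change of -0.34 (SE 0.10) did not pass the test (adjusted p = 0.0755, limma). Over the 16 other settings the adjusted p of Psap was 0.0327 to 0.361, and it was under 0.05 without p16 replicate 4 (0.0327) and with DESeq2 on recovered reads (0.0328); leaving out the library labelled p16 replicate 1 it was 0.181. Grn, the progranulin gene, was at 769 ± 45.8 in controls and 834 ± 65.4 in p16 cells (adjusted p = 0.602). Gm2a (the GM2 activator), Lipa (acid lipase), Tpp1 (a peptidase) and Ppt1 (a thioesterase) had log2 fold changes between -0.06 and 0.28.

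Of the 5 membrane proteins none was called. Lamp1 and Lamp2, the main glycoproteins of the lysosomal membrane and common measures of lysosome content, differed between the groups by less than the spread within them. Lamp1 was at 3064 ± 261 in controls and 3098 ± 365 in p16 cells, and its 95% interval on the log2 scale ran from -0.21 to 0.24. Lamp2 was at 957 ± 86.5 and 1005 ± 140.5, with an interval from -0.17 to 0.30. Cd63, a tetraspanin of late endosomes and lysosomes, was at 934.7, 707.1, 869.4 and 794.5 in controls and 667.6, 682.4, 705.8 and 597.7 in p16 samples. Its groups were only just apart, control replicate 2 lying next to p16 replicate 3, and the log2 fold change of -0.31 (SE 0.10) had an adjusted p of 0.126 (limma), or 0.254 leaving out the library labelled p16 replicate 1. Scarb2, the receptor that carries glucocerebrosidase to the lysosome, and Mcoln1, a lysosomal calcium channel, had log2 fold changes of -0.02 and 0.20.

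Tfeb and Tfe3, the factors that raise lysosomal genes, were not called either. Tfeb was at 83.6 ± 5.37 in controls and 94.3 ± 16.9 in p16 cells (log2 fold change 0.16, adjusted p = 0.665, limma). Tfe3 was at 98.1 ± 17.2 and 119 ± 7.24 (0.29, adjusted p = 0.323). Both act largely through their movement into the nucleus, which RNA levels do not record.

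In the V-ATPase, Atp6v1a (ENSMUSG00000052459, chr16:44085402-44139705, minus strand), the subunit that binds and splits ATP, was lower in p16 cells. It was at 874.6, 798.2, 821.8 and 705.8 in controls and 614.9, 624.6, 591.4 and 535.3 in p16 samples. The lowest control, replicate 4, lay above the highest p16 sample, replicate 2. The ratio of the means was 0.739 and the log2 fold change -0.43 (SE 0.09, adjusted p = 0.02, limma). This call held in 10 of 16 other settings (adjusted p from 0.00109 to 0.121). It was lost without control replicate 1 (0.0731) or 3 (0.0563), without p16 replicate 1 (0.0531) or 3 (0.0506), without replicate 3 of both groups (0.121) and with values scaled to equal totals (0.0507).

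Atp6ap2, the prorenin receptor, which is needed for assembly of the pump, also had non-overlapping groups. It was at 288.6, 295.2, 298.2 and 281.1 in controls and 241.5, 261.6, 274.9 and 203.9 in p16 samples. The controls lay close together and the p16 samples were spread, and the log2 fold change of -0.25 (SE 0.11) did not pass the test (adjusted p = 0.257, limma, and 0.435 leaving out the library labelled p16 replicate 1). For other pump genes the group means were closer, as for Atp6v1f at 798 ± 84.1 in controls and 799 ± 84.5 in p16 cells and Atp6ap1 at 787 ± 90.3 and 838 ± 118. Over the 14 tested pump genes the log2 fold changes ran from -0.43 to 0.11 with a median of -0.05, and Atp6v1g1 was the third one at an unadjusted p under 0.05 (-0.29, adjusted p = 0.154). Summed pump values were 5396.6 to 6163.7 in controls and 5027.4 to 5518.8 in p16 samples. Atp6v0c, the proteolipid of the membrane ring, had a single read in the 8 samples, in p16 replicate 2; near-identical copies of this gene in the mouse genome could have taken its reads in counting, so its level is uncertain.

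The wider lysosomal system was read from 123 other genes, of which 109 were tested. Of these, 61 were on average higher and 48 lower in p16 cells, their median being 0.01 on the log2 scale, and 1 (0.917%) was called higher and 4 (3.67%) lower, where 1.24% and 2.61% of all genes were. Called genes were Plbd1 among the lipid hydrolases, Mcoln3 among the membrane proteins, Atp6v1c2 among the pump subunits, and Cst6 and Cstb among the cathepsin inhibitors. No gene was called among 19 other glycosidases and sulfatases, 4 other proteases, 9 enzyme-sorting genes, 14 genes of the MiT factors and lysosomal mTORC1, and 18 autophagy genes.

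The other glycosidases and sulfatases leaned one way without a single call. Of 19 tested, 17 were on average higher in p16 cells, and the median over all 19 was 0.21 on the log2 scale. Their sums were 1178.7, 1140.9, 1179.1 and 1104.5 in controls and 1328.2, 1249.3, 1374.5 and 1374.6 in p16 samples. All p16 sums lay above all control sums, with means of 1332 ± 59.1 and 1151 ± 35.7. Leaving out the library labelled p16 replicate 1, 15 of 19 were on average higher and the median was 0.09.

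Of 7 tested cathepsin inhibitors, 2 (28.6%) were called, both lower in p16 cells, where 2.61% of all genes were called lower. Cst6, cystatin E/M, which inhibits cathepsin L and legumain in the epidermis, was at 3227.0, 2920.9, 5252.6 and 5177.7 in controls and 1347.3, 1662.2, 1745.0 and 1574.5 in p16 samples. All p16 samples lay far below the lowest control, and the controls fell into a lower and a higher pair. Its log2 fold change was -1.34 (SE 0.17, adjusted p = 4.42e-04, limma), and -1.27 (adjusted p = 0.0033) leaving out the library labelled p16 replicate 1, called in 16 of 16 other settings (adjusted p up to 0.00644). Cstb, cystatin B, an inhibitor in the cytosol, was at 1434.7, 967.6, 1701.3 and 1370.4 in controls and 686.0, 755.0, 662.3 and 771.2 in p16 samples. Here too the groups did not overlap, with a log2 fold change of -0.90 (SE 0.14, adjusted p = 0.00216, limma), and -0.88 (adjusted p = 0.012) leaving out the library labelled p16 replicate 1, called in 16 of 16 other settings (adjusted p up to 0.0299). Cst3, cystatin C, the main secreted inhibitor, was at 2923.6, 2843.9, 3265.6 and 2566.7 in controls and 2428.3, 2261.1, 2450.7 and 2400.8 in p16 samples. Its groups did not overlap but it was not called (-0.28, adjusted p = 0.142, limma). Stfa3 went the other way, at 51.9, 43.6, 222.2 and 67.2 in controls and 221.5, 312.3, 236.7 and 127.4 in p16 samples. It was not called either (1.47, adjusted p = 0.0559, limma), but was called higher with the replicate block (0.0167) and without control replicate 3 (9.54e-04). The call was also made without p16 replicate 4 (0.0172) and without replicate 3 of both groups (0.00557). Cst3 and Stfa3 are named here after their values were seen. On the log2 scale, 2 of the 7 were on average higher and 5 lower.

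The 3 remaining called genes rested on fewer settings or reads. Plbd1, a phospholipase B-like protein, was at 335.3, 367.0, 393.4 and 345.3 in controls and 506.1, 473.9, 459.3 and 536.9 in p16 samples, with all p16 samples higher (log2 fold change 0.45, SE 0.09, adjusted p = 0.0139, limma). It was called in 14 of 16 other settings (adjusted p from 0.00125 to 0.0564) and missed the threshold without the library labelled p16 replicate 1 (0.0564). Atp6v1c2, a pump subunit isoform of epithelia, was at 51.2, 33.4, 57.6 and 33.6 in controls and 23.2, 24.2, 23.9 and 14.0 in p16 samples, all lower (-0.9996, SE 0.25, adjusted p = 0.0355, limma). Mcoln3, a calcium channel also found in melanocytes, was at 40.1, 14.1, 10 and 16.8 in controls and 4.0, 9.4, 5.3 and 1.6 in p16 samples, where control replicate 3 lay just above p16 replicate 2 (-1.79, SE 0.46, adjusted p = 0.0435, limma). Atp6v1c2 was called in 8 and Mcoln3 in 5 of 16 other settings, and without the library labelled p16 replicate 1 their adjusted p was 0.075 and 0.118 (range 0.0107 to 0.167 and 0.0137 to 0.16).

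**Figure D3:**
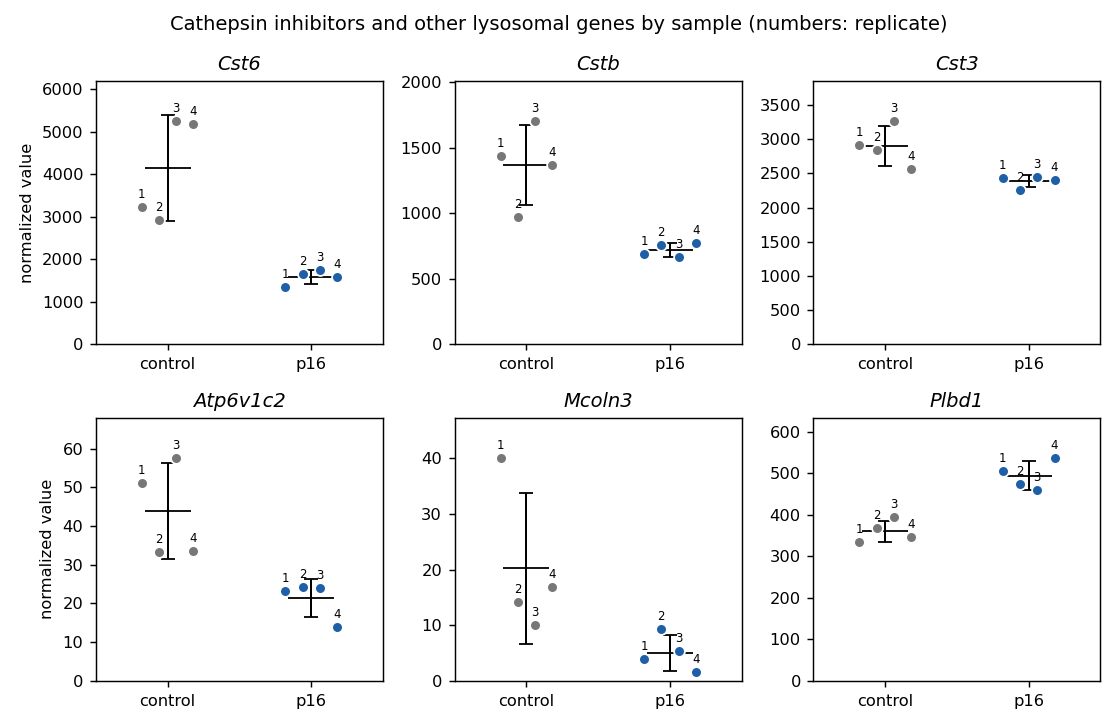
Normalized values (y axis, from 0) of 3 cathepsin inhibitors and 3 other lysosomal genes in the 4 control (grey) and 4 p16 (blue) samples, with replicate numbers and the mean ± SD in black. Cst6, Cstb, Atp6v1c2 and Mcoln3 are lower and Plbd1 is higher in every p16 sample than in every control; Cst3 is lower with a small gap and was not called.

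Genes of several skin appendages moved with the groups as well, and in bulk samples fewer cells of a type and less RNA per cell cannot be told apart. For the marker counts that follow, 2.61% of all genes tested were called lower and 1.24% higher. All 8 sebaceous gland markers had lower means in p16 cells and 7 were called, their sums being 1754.3 to 2397.9 in controls and 731.6 to 1093.1 in p16 samples. Of 9 hair follicle markers 8 had lower means and 6 were called, with sums of 7281.6 to 9852.8 and 5513.7 to 7594.4, and of 6 tested melanocyte markers all had lower means and 2 were called, with sums of 75.9 to 457.0 and 17.2 to 91.4. Langerhans and myeloid markers, cells rich in lysosomes, summed to 139.1 to 161.8 in controls and 148.1 to 198.3 in p16 samples with 0 of 7 called. Lyz2, also listed, was at 0 throughout. Of the 7 tested, 5 had higher and 2 lower means in p16 cells. In 1 of 7, p16 values lay wholly above the controls, where they did for 4.19% of all genes. This was Cd207, the Langerhans cell marker langerin, at 0.7, 0, 0.8 and 0 in controls and 2.4, 4.7, 1.8 and 3.3 in p16 samples. All were from 6 reads or fewer (adjusted p = 0.0922, limma). Cd74, H2-Aa and H2-Ab1 overlapped between the groups (log2 fold change 0.14, 0.26 and 0.10). Fibroblast markers summed to 609.6 to 811.4 and 771.6 to 2951.0, mostly from Thy1. Of 6 tested, 4 had higher and 2 lower means in p16 cells. Only Dcn was called, at 2.6 to 10.7 in controls and 36.2 to 203.0 in p16 samples. Col1a2 went the other way, at 4.2 to 17.8 in controls and 1.6 to 3.3 in p16 samples (adjusted p = 0.0571, limma). Basal keratinocyte markers summed to 31880.9 to 52881.9 and 32055.6 to 36674.6, with 1 of 7 called, Krt15, lower. Krt5 was at 11761 to 12279 reads per sample and Krt14 at 10186 to 12146, whatever the total reads. The basal sums therefore followed depth in large part and are not read as levels. Krt15 was at 7452 to 11381 reads. Differentiated keratinocyte markers summed to 5983.1 to 8393.6 and 6372.6 to 9802.5, where 1 of 7 was called higher (Lor) and 2 lower (Ivl and Sbsn). No T cell marker (of 4 tested) and no endothelial marker (of 3) was called. Leaving out the library labelled p16 replicate 1, 6 sebaceous, 5 hair follicle and 0 melanocyte markers were called lower, and Dcn was still called higher. In that setting 1 differentiated keratinocyte marker was called in each direction and 0 basal ones were, where 1.49% of all genes were called lower and 0.54% higher. The part of these shifts in the fall of Ctsl, Ctsd, Atp6v1a, Cst6, Cstb, Atp6v1c2 and Mcoln3 was not tested.

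**Figure D4:**
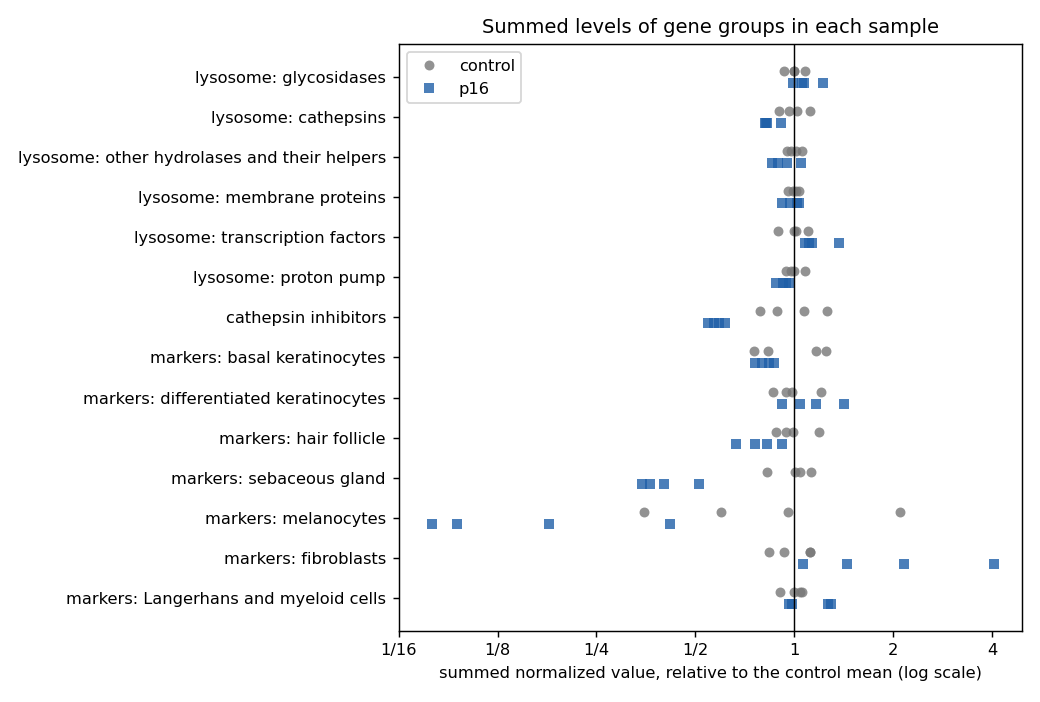
Summed normalized value of each gene group in each sample, divided by the mean of the 4 control sums (log-scaled x axis; circles, controls; squares, p16). The 6 lysosomal groups overlap between controls and p16 samples, with the transcription factors of p16 replicate 4 farthest to the right among them, cathepsin inhibitors and sebaceous markers lie wholly below the controls in p16 samples, and melanocyte markers spread widest.

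The 3 called members, Ctsl, Ctsd and Atp6v1a, were among the 14 with CACGTG, and 0 of the 28 tested members with a promoter entry and no CACGTG was called. Of all genes tested, 2.61% were called lower. The 14 members with CACGTG had log2 fold changes from -1.02 to 0.53 with a median of -0.11, and the 28 without it ran from -0.90 to 0.88 with a median of 0.03. Leaving out the library labelled p16 replicate 1, the medians were -0.13 and 0.02, and 2 of the 14 were called lower, where 1.49% of all genes were. Glb1, Lamp1, Gaa and Gla also held CACGTG and were not called. The full TCACGTGA core was absent from the promoter of Ctsl. Gla, Ctsa, Mcoln1, Atp6v0d1 and Atp6v0e held it, as Ctsd and Atp6v1a did, and were not called. The difference between members with and without CACGTG was not tested.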

How the data were processed

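Cells were sorted, and libraries were made by CEL-Seq and sequenced on an Illumina HiSeq. Per the study's methods and the submitters' processing notes, the authors used Cutadapt for trimming, TopHat2 for alignment to GRCm38 and HTSeq for counts per gene, and divided the counts by a DESeq2 size factor; versions are not given in the sources used here. The deposited signal is this normalized value, rounded to 1 decimal, in 8 samples. All values up to 500 were a whole number of reads within 0.06 normalized units (100% of values in each sample), so whole reads were recovered. The deposited p-value, adjusted p-value and test score columns are the authors' own comparison and were not used. The other 13 samples (a second series) were not analysed here.

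Values were tested as log2(value + 1) with limma 3.58.1 (trend, R 4.3.3) over the 12782 genes with a mean of at least 1, with Benjamini-Hochberg adjustment; a call is an adjusted p under 0.05. Scripts were tested on simulated data. edgeR 4.0.16 and DESeq2 1.42.0 on recovered reads were alternatives, beside other pseudocounts, filters, scaling and left-out samples. Members and gene lists were chosen with earlier results of these data known. Values per sample are given for Glb1, for called members, and for members with non-overlapping groups and an unadjusted p under 0.05. Other members are given as ranges, with the 1 or 2 highest by mean value in each role. Other lysosomal genes are named when called, and Cst3 and Stfa3 were added after their values were seen. The lists and the exact permutation test (two-sided) were used as described beside each result. No 2 replicates agreed within sampling noise.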

Additional observations from a re-analysis of the deposited data

Results flagged for a closer look

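In 96 groups of 4 values (48 tested members in controls and in p16 samples), 4 held a value that stood apart from the other 3 by more than Dixon's 95% critical value allows, where chance gives about 1 in 20. All 4 were control values, and control replicate 4 had the fewest reads of the 8 samples. Galc, a galactosylceramidase, was at 35.1 in control replicate 4 and at 20.8 to 23.1 in the other controls. Ctss was at 4.6 in control replicate 4, which is 3 reads, and at 0 in the other controls. Scarb2 was at 473.6 in control replicate 4, below 557.1 to 572.1 in the others. Atp6v1d, a pump subunit, was at 281.1 in control replicate 2, above 256.7 to 260.6. None of these 4 genes was called.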

How the results depend on the processing

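The 16 other settings were a pseudocount of 0.1, no filter, a minimum mean of 10, scaling to equal totals, a replicate block, each of 8 samples left out, replicate 3 of both groups left out, edgeR and DESeq2. No member was called higher in any of them. Members called lower were 1 without replicate 3 of both groups to 4 without control replicate 2, and 3 of 48 with all samples. Of the 12782 genes tested, 150, 306 and 334 were called lower in these same fits. Over all 16 settings, 63 to 216 genes were called higher and 150 to 392 lower, of 10431 to 15392 tested. At an unadjusted p under 0.05, 4 of 48 members and 9 of 109 other lysosomal genes were higher, where 7.02% of all genes were. Lower were 9 of 48 members and 12 of 109 other lysosomal genes, where 8.93% of all genes were. Other lysosomal genes called higher were 0 without control replicate 1 or p16 replicate 1 to 2 without control replicate 3 or p16 replicate 4, and those called lower were 2 to 4 with a sample left out, 2 with no filter or with equal totals, and 5 with DESeq2. Glb1 stayed higher in p16 cells and uncalled in all 16.

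Same-numbered samples deviated together only weakly (correlations of 0.0549, 0.0044, 0.0463 and 0.0827), so the numbers were not taken as pairs, and control replicates 1 and 2 correlated best with another number. With the replicate block, members were 0 higher and 3 lower, other lysosomal genes were 3 higher and 5 lower in place of 1 and 4, and all genes were 216 higher and 392 lower in place of 159 and 334.

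Of 48 members, 17 changed sign somewhere, all with a log2 fold change of at most 0.20 in size and none called; the cause was not tested. With edgeR Man2b1 was -0.0009, Tpp1 -0.0076 and Atp6v1f -0.0054, with DESeq2 Tpp1 was -0.0012, and with equal totals Scarb2 was 0.0183 and Atp6v1e1 0.0324. With samples left out the log2 fold change ran from -0.0571 to 0.1015 for Gaa, -0.0703 to 0.1273 for Gusb, -0.0723 to 0.1416 for Man2b1, -0.0011 to 0.2618 for Ctsc, -0.314 to 0.0189 for Ctsf, -0.0267 to 0.0478 for Tpp1, -0.2222 to 0.0699 for Ppt1, -0.066 to 0.0585 for Lamp1, -0.0077 to 0.1534 for Lamp2, -0.0802 to 0.0486 for Scarb2, -0.0484 to 0.1422 for Atp6v0a1, -0.0431 to 0.1088 for Atp6v0b, -0.0989 to 0.0812 for Atp6v0d1, -0.1678 to 0.0328 for Atp6v1b2, -0.0376 to 0.0519 for Atp6v1e1, -0.0457 to 0.1374 for Atp6v1f and -0.0052 to 0.1428 for Atp6ap1. Ctsk and Atp6v0c had too few reads for a test.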
